A study of Mus musculus with 8 samples.

Results

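The genes of the 4 Hox clusters were examined in cells sorted from the mouse colon as enteric neurons, in Emb knockdown and in WT mice. Members were all genes whose symbol is Hox, a cluster letter from a to d and a number, which gave 39 of the 55414 genes in the count table. Cluster a held 11 of them (chromosome 6), cluster b held 10 (chromosome 11), cluster c held 9 (chromosome 15) and cluster d held 9 (chromosome 2). By paralog group, the number in the symbol, 8 members were anterior (groups 1 to 3), 15 central (groups 4 to 8) and 16 posterior (groups 9 to 13). RNA was sequenced from 4 Emb knockdown and 4 WT libraries of mice aged 4 weeks. Emb encodes embigin, an immunoglobulin-family membrane protein that accompanies monocarboxylate transporters. Colon cells were dissociated, stained for CD24 and CD56 and sorted at about 250 cells a tube, and their RNA was amplified with a Smart-seq kit. How the knockdown was made, and in which cells, was not stated in the material at hand, and nothing there ties each tube to a mouse of its own, so p-values measure the spread between libraries, which may be technical.

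Hox genes encode homeodomain transcription factors that give cells a position along the head-to-tail axis. Within a cluster the genes lie in the order of their paralog groups, and those with higher numbers are generally switched on later and closer to the tail. In the gut, anterior and central Hox genes are expressed from the foregut onward, posterior ones mark the hindgut and colon, and the neural crest cells that form the enteric nervous system carry a Hox code of their own. Hox proteins bind DNA with TALE homeodomain partners of the Pbx and Meis families. Retinoic acid and Cdx factors switch Hox genes on during development, and Polycomb and Trithorax proteins keep them off or on.

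The promoter windows of Hoxb4, which held most of the Hox counts, and of Hoxd4, its paralog in cluster d, are printed to set side by side 2 members of paralog group 4 that stood at very different levels. Each runs from 250 bases before the RefSeq start to 50 after it (RefSeq, GRCm38.p6), on the plus strand, at chr11:96318017-96318316 for Hoxb4 and chr2:74721728-74722027 for Hoxd4. Capitals mark matches, on either strand, to TTTATG (a caudal-type core), TGATTNAT (a HOX-PBX composite) or AGGTCA (a retinoid receptor half-site, whose reverse strand reads TGACCT).
Hoxb4: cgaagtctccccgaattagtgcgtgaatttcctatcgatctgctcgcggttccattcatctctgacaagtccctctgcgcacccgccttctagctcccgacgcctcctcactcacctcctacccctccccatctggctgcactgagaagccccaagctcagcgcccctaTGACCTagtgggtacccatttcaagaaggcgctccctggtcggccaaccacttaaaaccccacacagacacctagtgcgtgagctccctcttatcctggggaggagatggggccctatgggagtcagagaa
Hoxd4: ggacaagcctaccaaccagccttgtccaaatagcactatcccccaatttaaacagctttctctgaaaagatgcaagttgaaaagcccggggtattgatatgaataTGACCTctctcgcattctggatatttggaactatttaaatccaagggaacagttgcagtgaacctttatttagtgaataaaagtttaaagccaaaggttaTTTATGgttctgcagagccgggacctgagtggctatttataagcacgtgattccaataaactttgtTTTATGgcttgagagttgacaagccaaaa
The Hoxb4 window was 58% G and C with 14 CpG dinucleotides and held 1 AGGTCA match. The Hoxd4 window was 39.7% G and C with 4 CpG dinucleotides and held 2 TTTATG matches and 1 AGGTCA match. Over all 32851 windows of the same length, 11.9% held TTTATG, 3.22% TGATTNAT and 16.3% AGGTCA, and of the 24 windows of the 22 Hox genes that matched the table, 5, 2 and 7 did. A match describes letters and is no evidence of a bound site.

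Totals ran from 2024372 to 2712754 counts in Emb knockdown libraries and from 698930 to 954191 in WT libraries, and ribosomal RNA genes took 31.2 to 45.1% of them in Emb knockdown against 5.28 to 14.4% in WT. One count was worth 0.530 to 0.666 CPM (counts scaled by TMM library size) in Emb knockdown and 0.761 to 1.41 CPM in WT, so a count of 0, which allows up to 3, left a level of up to 2.00 CPM in Emb knockdown and 4.22 CPM in WT undetected. Emb itself had 5, 25, 3 and 5 counts in Emb knockdown and 4, 6, 22 and 16 in WT, which overlapped (log2 fold change -1.24 ± 0.82 SE, edgeR adjusted p = 0.529). For the cell type in the labels, the 16 enteric neuron markers summed to 263 to 543 CPM in Emb knockdown and 283 to 490 CPM in WT. Of these markers 8 had enough counts to be tested. Elavl3 and Uchl1 were the highest of the neuron list. Snap25, chosen after its values were seen, lay at or under 1.46 times stray signal in every library. The 7 enteric glia markers had the largest sum of any marker list. It ran from 20215 to 29026 CPM in Emb knockdown and from 19021 to 54539 CPM in WT. Markers of other cells were present: macrophage genes (C1qa and Itgam highest) summed to 3625 to 5926 CPM in Emb knockdown and 2009 to 7545 CPM in WT, endothelial genes (Pecam1, Vwf) to 191 to 1471 CPM in Emb knockdown and 367 to 2079 CPM in WT, and epithelial genes (Lgals4, Muc2) to 388 to 518 CPM in Emb knockdown and 285 to 492 CPM in WT. Smooth muscle (Mylk, Myh11), lymphocyte (Cd4, Ptprc) and interstitial cell of Cajal (Ano1, Etv1) genes summed to at most 107, 151 and 52.6 CPM in Emb knockdown and 116, 171 and 64.7 CPM in WT. These are bulk libraries, in which fewer cells of a type and less RNA per cell cannot be told apart.

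Hoxb4, a central group gene, stood far above every other Hox gene in all 8 libraries. Levels were set per exonic kilobase against the summed olfactory, vomeronasal and trace amine receptor genes of the same library, 1505 genes that gut cells are not known for and that measure stray signal. On this scale Hoxb4 (ENSMUSG00000038692, GRCm38 chromosome 11, 96318267 to 96321638, plus strand) lay at 254 to 637 times the receptor level in Emb knockdown and 140 to 250 times in WT. Its mean of 295 times ranked 39th of 21927 protein-coding genes and was 28.9 times that of the second Hox gene, Hoxc13, at 10.2 times. It took 70.3 to 84.3% of all Hox counts in Emb knockdown libraries and 62.7 to 78.0% in WT libraries. No exonic base of Hoxb4 is shared with another annotated gene.

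Most other members lay near the stray level. The median Hox gene averaged 2.00 times the receptor level, against 1.80 times for the median protein-coding gene, and 30 of the 39 averaged under 4 times. Of the 39, 21 lay above the 95th percentile of the receptor genes themselves (1.92 times), and 7 were at or above 1 times in all 8 libraries. A count was found in all 8 libraries for 24 members, and none was at 0 throughout. Single libraries reached high levels for genes that were low elsewhere. Hoxc6, which acts in thoracic patterning, had 142 counts in Emb knockdown replicate 3, against 0, 3 and 13 in the other Emb knockdown libraries and 1, 4, 7 and 2 in WT. That library held 76.4% of its summed CPM.

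**Figure D1:**
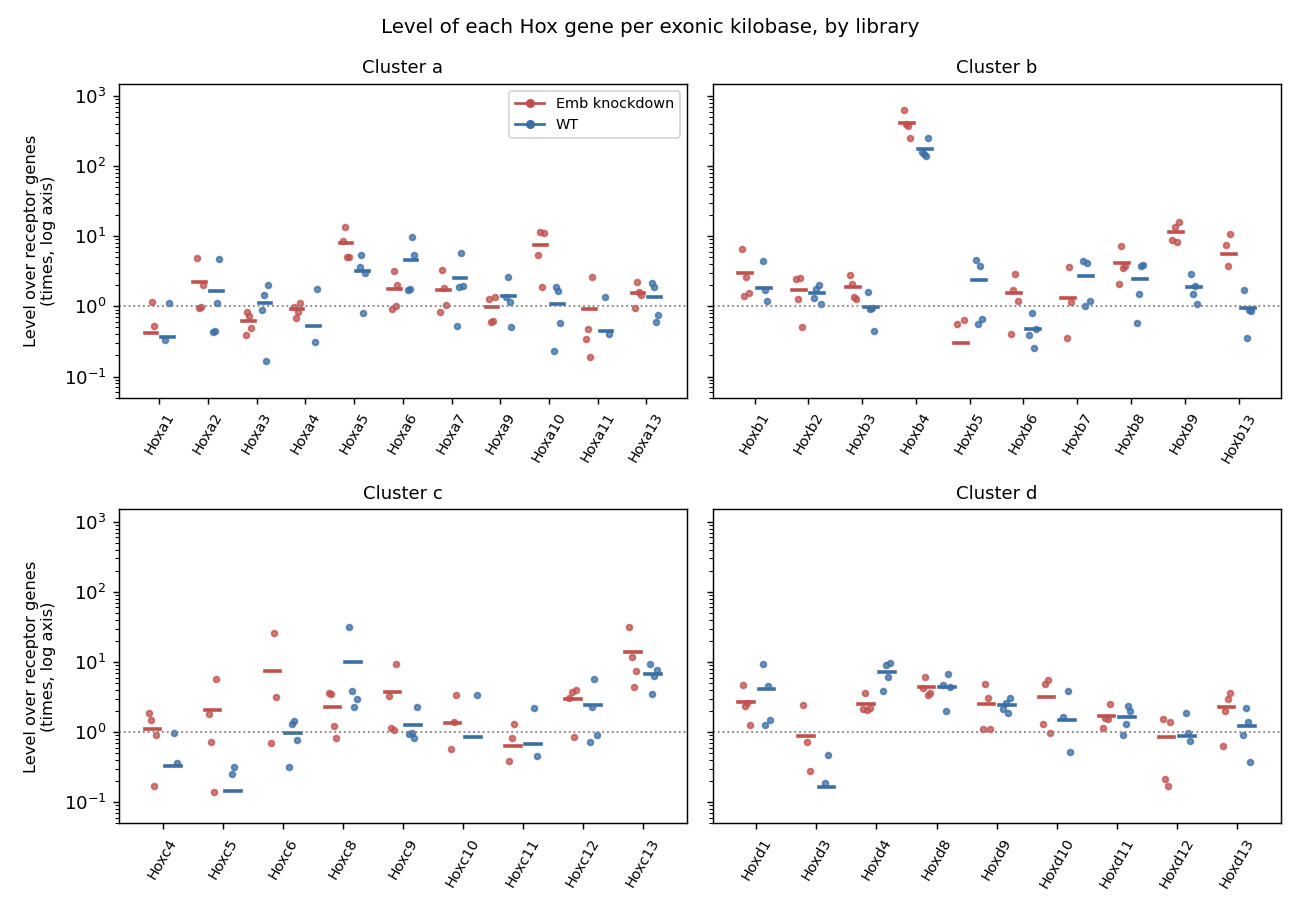
Level of each of the 39 Hox genes per exonic kilobase over the receptor genes (times, log axis) in the 4 clusters, with Emb knockdown left of WT for each gene; points are libraries, lines group means, the dotted line is 1 times, and libraries at 0 are not drawn. Hoxb4 sits at 140 to 637 times in every library, while the highest value of any other Hox gene is 31.5 times.

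After the filter on low counts, 14 of the 39 Hox genes were tested in the edgeR quasi-likelihood fit over 11353 genes: Hoxa5, Hoxa10, Hoxb1, Hoxb2, Hoxb4, Hoxb8, Hoxb9, Hoxc8, Hoxc13, Hoxd4, Hoxd8, Hoxd9, Hoxd11 and Hoxd13. None of the 14 passed an adjusted p of 0.05, nor did any gene (0%), with a lowest adjusted p of 0.0719. By the unadjusted p under 0.05, 4 of the 14 were called, where 13.3% of all tested genes were (8.64% higher and 4.64% lower in Emb knockdown). Hoxa10 and Hoxb9, both posterior, were higher in Emb knockdown, and Hoxc8 and Hoxd4, both central, were lower. The DESeq2 Wald test on the same counts called 2 Hox genes at its adjusted p, Hoxb9 (adjusted p = 0.0133) and Hoxd4 (adjusted p = 0.00305). It called 683 of the 11353 genes in all. It gave no adjusted p to Hoxb1, Hoxb2, Hoxb8, Hoxc8, Hoxd9, Hoxd11 and Hoxd13, so these could not be called. The share of all genes without an adjusted p is not given here.

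Among the posterior genes, Hoxb9, which takes part in thoracic and mammary patterning, had 29, 64, 48 and 69 counts in Emb knockdown libraries against 10, 5, 10 and 3 in WT. In CPM it had 19.3, 33.9, 25.9 and 43.2 in Emb knockdown and 12.9, 5.75, 7.61 and 4.22 in WT. All 4 Emb knockdown libraries lay above all WT libraries. The means were 30.6 ± 10.3 CPM in Emb knockdown and 7.61 ± 3.77 CPM in WT (SD, n = 4 each; exact two-sided permutation p = 0.02857, the smallest that 4 against 4 libraries can give), and the log2 fold change was 1.99 ± 0.61 (SE, edgeR adjusted p = 0.295).

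Hoxa10, known for its part in the patterning of the uterus and lower spine, had 14.7, 35.5, 7.57 and 38.2 CPM in Emb knockdown against 1.29, 9.20, 8.37 and 2.81 CPM in WT. The groups overlapped through Emb knockdown replicate 3, which lay under WT replicates 2 and 3. The means were 24.0 ± 15.2 CPM in Emb knockdown and 5.42 ± 3.95 CPM in WT (SD, n = 4 each; exact permutation p = 0.0857), with a log2 fold change of 2.09 ± 0.80 (SE, edgeR adjusted p = 0.320).

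Among the central genes, Hoxd4, a gene of the hindbrain and neck region, had 8, 19, 14 and 11 counts in Emb knockdown against 15, 34, 36 and 31 in WT. In CPM it had 5.33, 10.1, 7.57 and 6.89 in Emb knockdown and 19.3, 39.1, 27.4 and 43.6 in WT. Every Emb knockdown library lay below every WT library. The means were 7.46 ± 1.97 CPM in Emb knockdown and 32.3 ± 11.05 CPM in WT (SD, n = 4 each; exact permutation p = 0.02857), and the log2 fold change was -2.10 ± 0.57 (SE, edgeR adjusted p = 0.293). Of its exonic bases, 52.3% are shared with other annotated genes. All of these 1542 bases are shared with genes of the same strand, Gm28230 (1154 bases) and Hoxd3 (388 bases). The antisense gene Hoxd3os1 overlaps 347 bases as well. Its counts are therefore uncertain whether or not strand was used in counting, which is not stated.

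Hoxc8, a gene of trunk and limb-level motor neurons, had 13, 18, 8 and 4 counts in Emb knockdown against 118, 14, 13 and 9 in WT. In CPM it had 8.66, 9.54, 4.32 and 2.51 in Emb knockdown and 152, 16.1, 9.89 and 12.6 in WT. The groups did not overlap, but WT replicate 1 stood far above the other WT libraries, and the closest libraries of the groups were 9.54 CPM in Emb knockdown and 9.89 CPM in WT. The log2 fold change of -2.90 ± 0.98 (SE, edgeR adjusted p = 0.308; exact permutation p = 0.02857) was -0.95 without WT replicate 1.

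**Figure D2:**
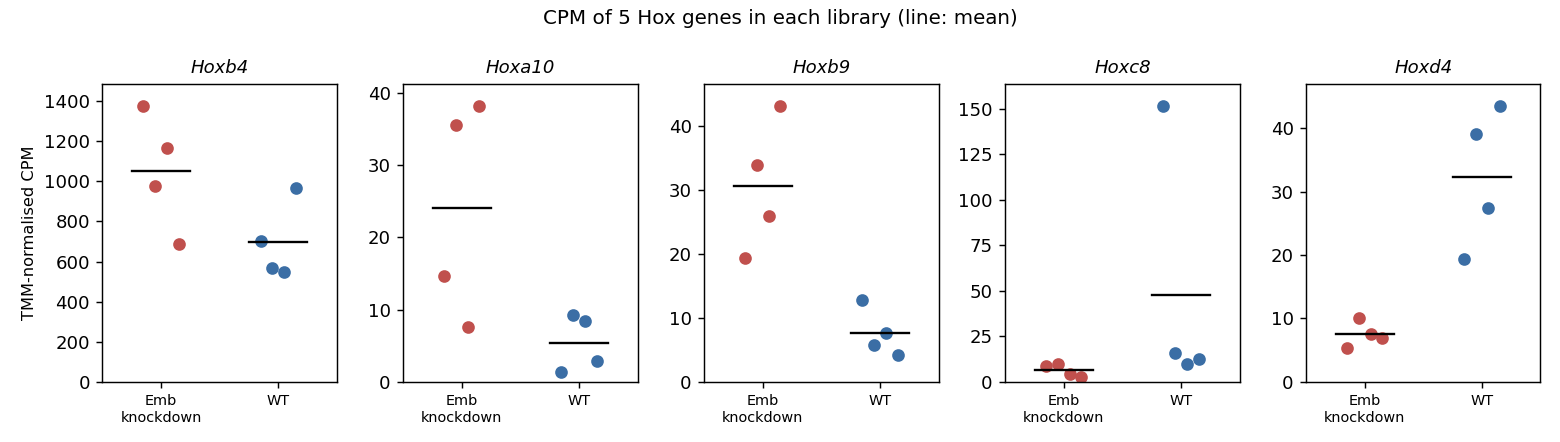
TMM-normalised CPM of 5 Hox genes in each library, Emb knockdown left and WT right, with points for libraries and lines for means; each panel has its own axis from 0. The groups are apart for Hoxb9 (higher in Emb knockdown) and for Hoxc8 and Hoxd4 (lower), overlap for Hoxb4 and Hoxa10, and Hoxc8 reaches 152 CPM in 1 WT library.

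Hoxb4 itself had 2068, 1845, 2160 and 1098 counts in Emb knockdown libraries against 547, 496, 720 and 687 in WT. In CPM it had 1378, 978, 1167 and 688 in Emb knockdown and 704, 570.2, 548 and 966 in WT. Replicate 4 was the lowest of the Emb knockdown group and the highest of the WT group, and the groups overlapped. The means were 1053 ± 293 CPM in Emb knockdown and 697 ± 192 CPM in WT (SD, n = 4 each; exact permutation p = 0.114), with a log2 fold change of 0.60 ± 0.60 (SE, edgeR adjusted p = 0.700). The sign depended on the scale: the log2 fold change was -0.021 with library totals alone and 1.24 when libraries were scaled to the receptor genes.

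The other 9 tested members had log2 fold changes between -0.67 (Hoxd8) and 0.69 (Hoxa5), with overlapping groups. Hoxc13, which acts in hair and nail formation, had 97, 53, 25 and 31 counts in Emb knockdown and 30, 11, 31 and 20 in WT (log2 fold change 0.29 ± 0.65 SE, and -0.31 without Emb knockdown replicate 1). Hoxb1, the hindbrain gene, stood at 0.08, Hoxb2 at -0.46, Hoxb8 at 0.21, Hoxd9 at -0.45, Hoxd11 at -0.51 and Hoxd13 at 0.38 on the log2 scale. Each of these had an unadjusted p above 0.05, which does not show that the groups were alike.

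**Figure D3:**
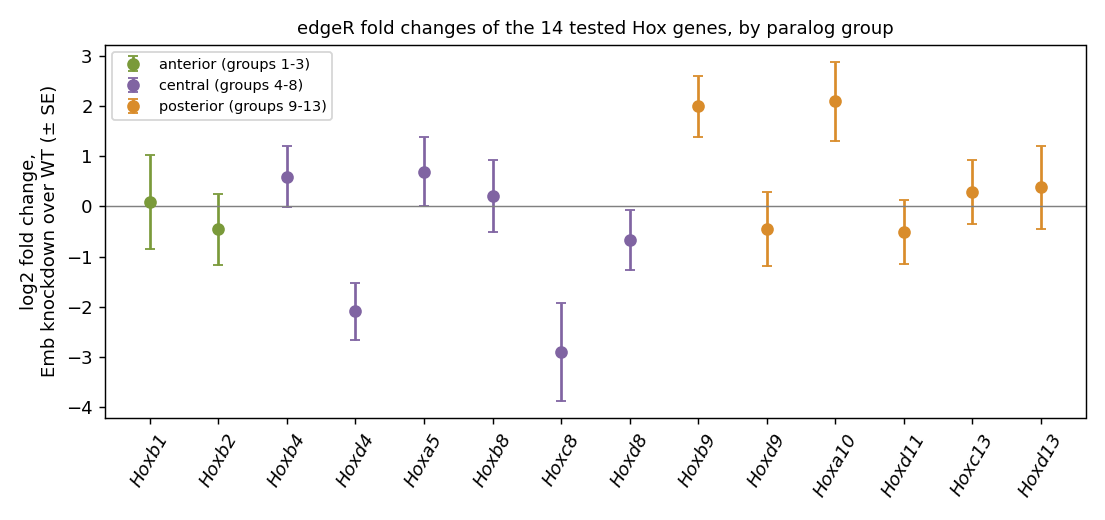
edgeR log2 fold change of Emb knockdown over WT (vertical axis, with SE) for the 14 tested Hox genes in the order of their paralog groups, coloured by anterior, central or posterior group. Hoxa10 (2.09) and Hoxb9 (1.99) stand highest and Hoxc8 (-2.90) and Hoxd4 (-2.10) lowest.

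Over all 39 members, filter or not, the groups did not overlap for 4, against 3.42% of the 48530 genes with a count: Hoxb9 was higher in Emb knockdown, and Hoxb5, Hoxc8 and Hoxd4 were lower. Of the 14 tested members this left 1 higher and 2 lower, where the groups were apart for 8.28% of all tested genes (4.03% higher and 4.25% lower). Hoxb5, a central gene expressed in enteric neural crest cells, was below the filter and was singled out after its values were seen, with 2, 0, 0 and 3 counts in Emb knockdown and 17, 2, 21 and 2 in WT. WT replicates 2 and 4 held 2 counts each, fewer than the 3 of Emb knockdown replicate 4, so the groups overlapped in counts and were apart only in CPM (at most 1.88 CPM in Emb knockdown and at least 2.30 CPM in WT), within what a count of 0 allows. By mean log2 CPM, 21 members were higher and 18 lower in Emb knockdown. Of the 3 other genes named for their level in their cluster, Hoxa6 had 1, 5, 2 and 3 counts in Emb knockdown against 2, 2, 17 and 5 in WT, Hoxd1 had 11, 8, 11 and 4 against 23, 3, 17 and 3, and Hoxc6 is given above. The groups overlapped for all 3.

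The 4 clusters did not separate the groups by mean level per gene. The mean log2 CPM over the members, Emb knockdown minus WT, was -0.06 for cluster a, 0.12 for cluster b, 0.21 for cluster c and -0.33 for cluster d, and the libraries overlapped in each. The same difference was 0.08 over all genes with a count, with overlap, and 0.19 over all tested genes, without overlap. Over all tested genes the mean log2 CPM was 4.24 to 4.30 in Emb knockdown libraries and 4.05 to 4.15 in WT libraries. By region the Hox difference was -0.09 for anterior, -0.27 for central and 0.27 for posterior members, each with overlap. Posterior minus anterior came to 0.42 ± 0.59 in Emb knockdown and 0.06 ± 0.05 in WT (SD, n = 4 each), a difference of 0.36 with overlapping libraries. Among paralog groups, the difference was 0.96 for group 10, -0.96 for group 7 and -0.69 for group 8, and the libraries overlapped in each.

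Sums over members, which follow the better-covered genes, set the groups apart for posterior genes and for cluster d. Outside Hoxb4, posterior genes summed to 144, 154, 136 and 184 CPM in Emb knockdown and 109, 100.01, 115 and 95.6 CPM in WT. Every Emb knockdown library lay above every WT library (log2 ratio of means 0.56), although with library totals alone the groups overlapped and the log2 ratio was -0.088. Without Hoxa10 and Hoxb9 they also overlapped, at 84.8 to 109.9 CPM in Emb knockdown and 85.1 to 98.9 CPM in WT (log2 ratio 0.12). Cluster d summed to 44.0, 60.4, 67.0 and 50.1 CPM in Emb knockdown and 93.9, 82.8, 113 and 94.2 CPM in WT. Every Emb knockdown library lay below every WT library (log2 ratio -0.79), and the groups overlapped when libraries were scaled to the receptor genes (log2 ratio -0.19). Without Hoxd4, whose counts are uncertain, they overlapped too, at 38.6 to 59.4 CPM in Emb knockdown and 43.7 to 85.2 CPM in WT (log2 ratio -0.41).

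Shares of the Hox counts of a library need no scaling between libraries. Of the 384 to 609 Hox counts outside Hoxb4 in Emb knockdown libraries, posterior genes held 56.3%, 54.5%, 41.2% and 63.3%. Of the 194 to 422 in WT libraries they held 26.2%, 39.2%, 35.8% and 35.1%. Emb knockdown replicate 3, the lowest, lay just above WT replicate 2, the highest, and their 95% Clopper-Pearson intervals, which cover counting error only, overlapped (37.3 to 45.2% in Emb knockdown and 32.7 to 45.9% in WT). The mean share was 53.8 ± 9.22% in Emb knockdown and 34.0 ± 5.56% in WT (SD, n = 4 each), a difference of 19.8 percentage points. Central genes held 33.0 ± 9.77% in Emb knockdown and 49.6 ± 7.30% in WT, and anterior genes 13.2 ± 6.14% in Emb knockdown and 16.4 ± 2.18% in WT, both with overlap.

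The posterior share was also taken without some or all of the 4 Hox genes with an edgeR unadjusted p under 0.05. These were picked for their difference in the same data, so a smaller difference without them followed from the choice. The groups overlapped without Hoxc8 alone (a difference of 15.9 points; 41.8 to 63.8% in Emb knockdown and 36.8 to 41.8% in WT), without Hoxa10 and Hoxb9 (12.01 points), without Hoxc8 and Hoxd4 (11.8 points) and without all 4 (4.45 points; 36.0 to 52.9% in Emb knockdown and 36.9 to 46.0% in WT). These shares were chosen after values had been seen. By cluster, the share of cluster d was 19.0 ± 2.13% in Emb knockdown and 31.1 ± 5.89% in WT, and that of cluster b 28.1 ± 3.201% in Emb knockdown and 19.1 ± 3.33% in WT (SD, n = 4 each). The groups did not overlap for either cluster, with 17.2 to 21.3% in Emb knockdown and 22.5 to 35.1% in WT for cluster d. Without Hoxb9 the cluster b shares overlapped, at 11.4 to 26.6% in Emb knockdown and 14.1 to 21.6% in WT. Without Hoxd4 the cluster d shares came close but still did not overlap, at 15.3 to 18.5% in Emb knockdown and 18.7 to 29.0% in WT. Summed fibroblast markers also did not overlap, at 276 to 525 CPM in Emb knockdown and 113 to 263 CPM in WT, with Col1a1 and Col1a2 highest; their part in the Hox shares, and that of the ribosomal RNA share, was not tested.

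**Figure D4:**
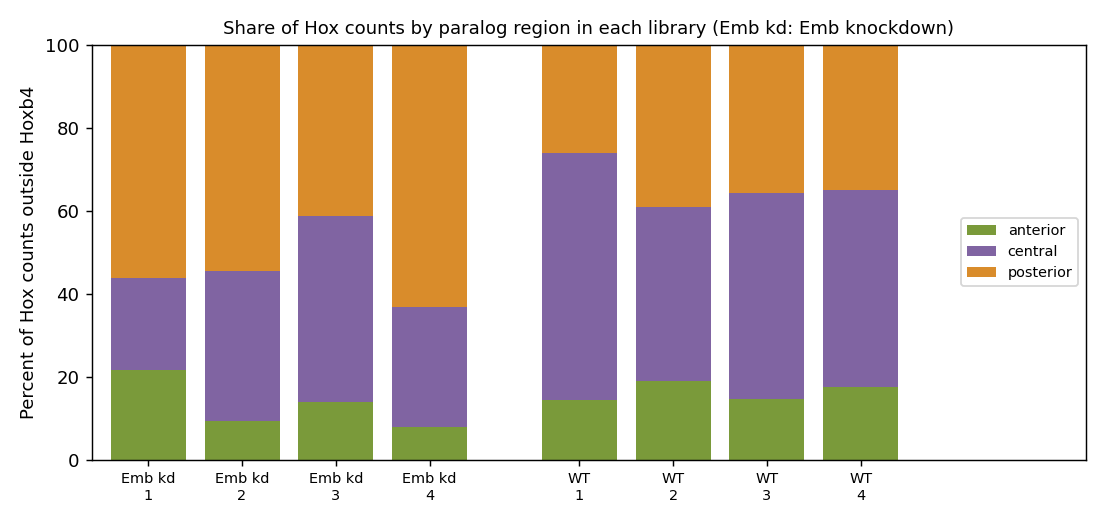
Percent of the Hox counts outside Hoxb4 (vertical axis) that belong to anterior, central and posterior genes in each library, Emb knockdown left of WT. Posterior genes hold 41.2 to 63.3% in Emb knockdown libraries and 26.2 to 39.2% in WT libraries.

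Genes that act with or on Hox genes showed no call at the edgeR adjusted p. All 9 TALE cofactors were tested and none had an unadjusted p under 0.05 (median log2 fold change -0.05, against 0.04 over all tested genes). The smallest p among them were those of Pbx3 (1.32), Meis1 (-0.77) and Pbx4 (-0.78), log2 fold changes of direct Hox partners. Of 16 genes of retinoic acid synthesis, breakdown and signalling, 8 were tested and none was called (median 0.96), with Cyp26b1, which breaks retinoic acid down, at 1.41 and the receptor Rara at 1.11. Of 6 Cdx and ParaHox genes only Cdx1, an intestinal activator of Hox genes, was tested, at -0.37.

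Of 28 Polycomb genes, 21 were tested, with 5 higher and 1 lower in Emb knockdown by the unadjusted p, where 8.64% of all tested genes were higher and 4.64% lower (median log2 fold change 0.52). Phc2, a subunit of Polycomb repressive complex 1, had 520, 597, 232 and 439 counts in Emb knockdown and 7, 18, 76 and 16 in WT (log2 fold change 3.26, edgeR adjusted p = 0.275). Cbx2, which binds the Polycomb mark and whose loss alters vertebral identity in mice, had 0, 4, 13 and 12 counts in Emb knockdown and 18, 36, 28 and 22 in WT (log2 fold change -2.77, edgeR adjusted p = 0.302). The groups were apart for both, as for 8.28% of all tested genes. Cbx6 stood at 3.34 with overlapping groups. It had 1452 counts in Emb knockdown replicate 1, against 298, 139 and 79 in the other Emb knockdown libraries and 20, 9, 34 and 44 in WT.

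Of 13 Trithorax and H3K27 demethylase genes, 12 were tested and 2 were higher by the unadjusted p, against 8.64% of all tested genes (median 0.91). Kmt2a, a methyltransferase that keeps Hox genes active, had 261, 186, 256 and 144 counts in Emb knockdown and 56, 40, 44 and 17 in WT, with the groups apart in CPM (log2 fold change 1.51, edgeR adjusted p = 0.336). Ash1l stood at 2.71, with 2424 counts in 1 Emb knockdown library, and Psip1 at 1.31. Of 19 noncoding RNAs of the Hox clusters, 17 were in the table and 3 were tested, none called: Hoxaas2 at -0.99, Hoxaas3 at -0.71 and Hoxd3os1 at -1.02. In CPM the groups were apart for Hoxaas3, at 3.18 to 6.00 CPM in Emb knockdown and 6.09 to 11.5 CPM in WT. They were also apart for Haglr, which was not tested and was picked for this after its values were seen. Both were lower in Emb knockdown. The groups were apart for 8.28% of all tested genes and for 3.42% of genes with a count. The gap for Hoxaas3, from 6.00 to 6.09 CPM, was smaller than the 0.530 CPM or more that 1 count was worth. The sum over the noncoding list was 29.3 to 43.8 CPM in Emb knockdown and 48.7 to 73.1 CPM in WT, without overlap. Hoxd3os1, which is in it, shares 347 exonic bases with Hoxd4. Other list sums were apart in the opposite direction. In Emb knockdown against WT these were retinoic acid (223 to 279 against 131 to 219 CPM) and Polycomb (789 to 2330 against 505 to 625 CPM). The Trithorax list was too (865 to 3037 against 490 to 654 CPM). The TALE and Cdx list sums overlapped.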

How the data were processed

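Libraries, made with a Smart-seq kit per the labels' protocols, were deposited as raw read counts per gene for 4 Emb knockdown and 4 WT samples. Trimming with cutadapt and mapping to mm10 are named in the submitters' processing notes; for the aligner, the counter and its strand setting, no source used here gives a name. Reads carry no molecular identifiers.

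Genes were filtered with filterByExpr (minimum count 10, minimum total 15), scaled with TMM and tested with edgeR 4.0.16 quasi-likelihood models (robust) in R 4.3.3, with Benjamini-Hochberg adjustment over all 11353 tested genes and a threshold of 0.05. Library sizes were the counts of tested genes. This choice was made after a first fit on the totals of all genes had been seen, to follow the processing of the whole series; the first fit is among the alternatives. Log2 CPM used a prior count of 2. For single genes, CPM were permuted exactly, two-sided, over the 70 assignments of libraries. Exon lengths came from GENCODE M21, which held 52133 of the 55414 genes. DESeq2 1.42.0, limma 3.58.1 voom, other scalings, no filter and leaving out each library were alternatives. The edgeR fit was tested on simulated data with known changes. Of 4-fold changes, 0% passed the adjusted p of 0.05 and 56.1% had an unadjusted p under 0.05. Of 16-fold changes, 25.3% passed the adjusted p. Replicate numbers are shared between the groups. Spearman correlations between libraries ran from 0.281 to 0.487. A separate pairing measure gave same-numbered libraries 0.0113 to 0.0337, which is not on the scale of those correlations. No libraries were identical.

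The members and gene lists were chosen with earlier results of these data known. Named genes were every tested Hox gene, the 3 highest of each cluster per exonic kilobase, up to 3 tested genes of each pathway list by smallest p and up to 2 of each marker list by highest CPM; others were chosen after their values were seen. Some genes that this rule would name are not reported here.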

Additional observations from a re-analysis of the deposited data

Results flagged for a closer look

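In Emb knockdown replicate 3, Hoxc6 stood at 76.7 CPM, where the next Emb knockdown library had 8.14 CPM and the lowest 0. In WT replicate 1, Hoxc8 stood at 152 CPM, where the next WT library had 16.1 CPM and the lowest 9.89 CPM. Each was picked out because 1 library lay far from the other 3 of its group. Of 34 groups of 4 libraries tested this way 2 were picked out, and chance picks out about 1 in 20. The cause was not tested.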

How the results depend on the processing

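Against 0 genes past the edgeR adjusted p, 910 passed with no filter and 683 with the DESeq2 Wald test, which alone of the settings run called Hox genes at its adjusted p (2, Hoxb9 at a log2 fold change of 2.00 and Hoxd4 at -2.12). Against 4 of 14 Hox genes with an unadjusted p under 0.05, there were 2 with library totals alone and 2 with limma voom. There were 3 with the DESeq2 Wald test (which gave Hoxc8 no p) and 8 of 39 with no filter (where 11.2% of 48530 genes were called). With a library left out there were 3 to 5, of 8 to 22 tested. Of all tested genes, 13.3% were called in the main fit, 17.2% with library totals and 10.2% with voom. The share was 19.2% of genes given a p by the DESeq2 Wald test, and 10.1 to 14.5% with a library left out. TMM on the totals of all genes gave the same 4. Library totals alone moved the median log2 fold change of all tested genes to -0.59 and receptor scaling to 0.64, against 0.04; genes called at that p numbered 419 higher and 1538 lower with totals, 2060 higher and 141 lower with receptor scaling, and 981 higher and 527 lower with TMM. Cluster differences were -0.46 (a), -0.35 (b), -0.17 (c) and -0.79 (d) with totals and 0.31, 0.56, 0.56 and 0.10 with receptor scaling, in that order. The log2 ratio of the cluster d sums was -1.40, -0.19 and -0.55, and that of the posterior sums -0.088, 1.18 and 0.79, with totals, receptor scaling and no filter; without Hoxd4 the cluster d value was -0.41, and without Hoxa10 and Hoxb9 the posterior value was 0.12. The difference in posterior share was 12.01 points without Hoxa10 and Hoxb9, 11.8 without Hoxc8 and Hoxd4, 15.9 without Hoxc8, 4.45 without all 4, and 16.6 to 24.0 when a library was left out. Signs turned with totals for Hoxb1 (-0.57), Hoxb4 (-0.021), Hoxb8 (-0.43), Hoxc13 (-0.48) and Hoxd13 (-0.16), and with receptor scaling for Hoxb2 (0.12), Hoxd9 (0.11) and Hoxd11 (0.048). Without single libraries, Hoxc13 ran from -0.31 to 0.63, Hoxb1 from -0.24 to 0.99 and Hoxb8 from -0.038 to 0.57. The cause of these shifts was not tested. The cluster and posterior-minus-anterior differences come from no test, so DESeq2, voom and the block give them no value.

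On the separate pairing measure, same-numbered libraries reached only 0.0113 to 0.0337, yet 3 of 4 matched best with their own number. Whether they share more than a number was not tested. With the replicate number as a replicate block, 4 of the 14 tested Hox genes had an edgeR unadjusted p under 0.05 and 0 passed the adjusted p. Among all 11353 tested genes, 918 (8.09%) had an unadjusted p under 0.05, against 1508 (13.3%) without the block. Depth limits all members but Hoxb4: most had a few counts a library.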
